A study of Homo sapiens with 21 samples.

Results

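HCC1806 cells labelled as overexpressing SRSF2 were set directly against HCC1806 cells labelled as overexpressing SRSF3, over all genes and without the control cells in the fit. The members are the 3 libraries titled 1xSRSF2 (SRSF2-OE below) and the 3 titled 1xSRSF3 (SRSF3-OE below), 6 of the 21 RNA-seq libraries of the series, and they were chosen by their titles. HCC1806 is an established human cell line from a triple-negative breast cancer. Every line was grown attached to plastic in DMEM with fetal bovine serum, without any drug treatment in the labels, and was harvested near confluence. By genotype the labels give SRSF2 OE for the first line and SRSF3 OE for the second, and the same table holds 3 libraries of a single plasmid control (1xCtrl), whose levels are printed here only as background. The labels used here name neither the promoter and vector nor whether a line is a clone or a pool, and nothing in them says that the replicates came from separate cultures, so the p-values measure the spread between these libraries, which may be technical.

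SR proteins bind exonic sequence through RNA recognition motifs, recruit the spliceosome through a tail rich in arginine and serine, and thereby help to choose which exons enter an mRNA. SRSF3 and SRSF7 also shuttle to the cytoplasm and act in mRNA export and in the choice of polyadenylation site, while SRSF2 stays mostly in the nucleus and in nuclear speckles. Several SR proteins, SRSF2 and SRSF3 among them, limit their own amount by splicing their transcripts into forms that nonsense-mediated decay removes. Gene counts as used here sum all transcripts of a gene, so they record the abundance of its RNA and not how it was spliced.

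The 6 libraries held between 171640946 and 248643388 counts, and 10.2% to 13.6% of the counts fell on the mitochondrial genome. Over genes, log2 levels correlated at r = 0.986 to 0.988 within a line and at 0.975 to 0.980 between the lines, and the first principal component, which held 43.8% of the variance, put the 3 libraries of each line together. Of 8 epithelial marker genes 8 passed the filter, with summed levels of 4602 to 5002 CPM (counts per mega-count, after TMM scaling of the library sizes) in the SRSF2-OE-labelled libraries and 4845 to 5355 CPM in those labelled SRSF3-OE. Markers of other cells stayed low: 7 fibroblast genes summed to 15.96 to 16.28 against 14.86 to 15.998 CPM, and 4 endothelial genes to 0.455 to 0.597 against 0.422 to 0.458 CPM.

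The targeted genes were read first, as a check of the labels. SRSF2 (ENSG00000161547.16, chr17:76734115-76737374, minus strand, a protein-coding gene) stood at 368, 397 and 404 CPM in the 3 SRSF2-OE-labelled libraries, at 432, 447 and 416 CPM in those labelled SRSF3-OE and at 438, 412 and 469.8 CPM in 1xCtrl. All 3 SRSF2-OE-labelled libraries lay below the 3 labelled SRSF3-OE and below 1xCtrl, so the count of the gene goes against the label SRSF2-OE. The log2 difference, SRSF2-OE minus SRSF3-OE in every value below, was -0.15 (SE 0.0568) with an adjusted p of 0.0565, just outside the threshold of 0.05. Of 3017 exon bases of SRSF2, 1106 overlap MFSD11 on the other strand, and reads of the pair cannot be told apart if counting ignored strand. SRSF3 (ENSG00000112081.17, chr6:36594353-36605600, plus strand) stood at 456, 443 and 452 CPM in SRSF2-OE, at 521, 501 and 500.2 CPM in SRSF3-OE and at 371, 334 and 408 CPM in 1xCtrl. The SRSF3-OE libraries were the highest of these 9, and the log2 difference was -0.17 (SE 0.05196, adjusted p = 0.018), 1.13-fold lower in the SRSF2-OE-labelled libraries. That call was lost with upper-quartile factors (adjusted p = 0.0605), with all 12 libraries of the table in the fit (0.0586), without the GC trend (0.712) and without SRSF2-OE replicate 2 (0.0803) or 3 (0.0617), within a range of 0.000629 to 0.712 over the alternatives without a minimum difference. Each comparison below is therefore between libraries as labelled, with no statement on how much SRSF2 or SRSF3 protein they held.

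SRSF7 stood at 395, 437 and 424 CPM in SRSF2-OE and 359.8, 369 and 376 CPM in SRSF3-OE, a log2 difference of 0.19 (adjusted p = 0.0176). That call was lost with no filter (adjusted p = 0.0644) and without replicate 2 (0.0947) or 3 (0.129) of SRSF2-OE or replicate 2 (0.0736) or 3 (0.104) of SRSF3-OE, within 0.00332 to 0.129 over the alternatives without a minimum difference. Of 14 SR and TRA2 genes 13 passed the filter, 5 (38.5%) were higher in the SRSF2-OE-labelled libraries and 2 (15.4%) in those labelled SRSF3-OE, with a median log2 difference of 0.02. Over all genes tested the shares were 19.2% and 18.7%. The share called in either direction, 53.8%, was near the 52.1% of all genes at 10 to 100 CPM and the 54.2% at 100 CPM or more. Over the alternatives without a minimum difference the counts ran from 2 to 5 and from 0 to 3. SRSF6 was the most changed SR or TRA2 gene, at 363, 406 and 399 against 271, 287 and 267 CPM (0.50, adjusted p = 1.87e-05), and SRSF4 followed with 0.39. MYC, the transcription factor that the series sets beside the SR proteins, lay at 144, 140.1 and 139.7 against 157, 151 and 153 CPM (-0.12, adjusted p = 0.0609). The levels of the MYC gene in SRSF2-OE and SRSF3-OE did not overlap, and the difference did not pass the threshold. It passed with RLE factors (adjusted p = 0.0475), no filter (0.0437), at least 10 counts in every library (0.0198), DESeq2 (0.018), the GC trend removed (0.0031) or without SRSF3-OE replicate 2 (0.0344), within a range up to 0.209.

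Across the genome the lines were far apart in number of genes and close in size for most of them. Of 22749 genes tested with edgeR's quasi-likelihood test, 8600 (37.8%) passed an adjusted p of 0.05, 4357 (19.2%) of them higher in the SRSF2-OE-labelled libraries and 4243 (18.7%) higher in those labelled SRSF3-OE. The levels of the lines did not overlap for 11411 genes (50.2%). Differences of at least 1 on the log2 scale were rarer, at 1314 called genes (5.78%), and uneven: 965 (4.24%) were at least that much higher in SRSF2-OE and 349 (1.53%) in SRSF3-OE. The unevenness lay in genes of low level, with 706 and 234 under 1 CPM and 216 and 68 at 1 to 10 CPM. At 10 to 100 CPM the counts were 41 and 42, and at 100 CPM or more 2 and 5. At 3 or more on the log2 scale the counts were 63 and 27. A test against a minimum absolute difference of 1 (glmTreat) called 265 genes (1.16%), 191 and 74 by direction.

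**Figure D1:**
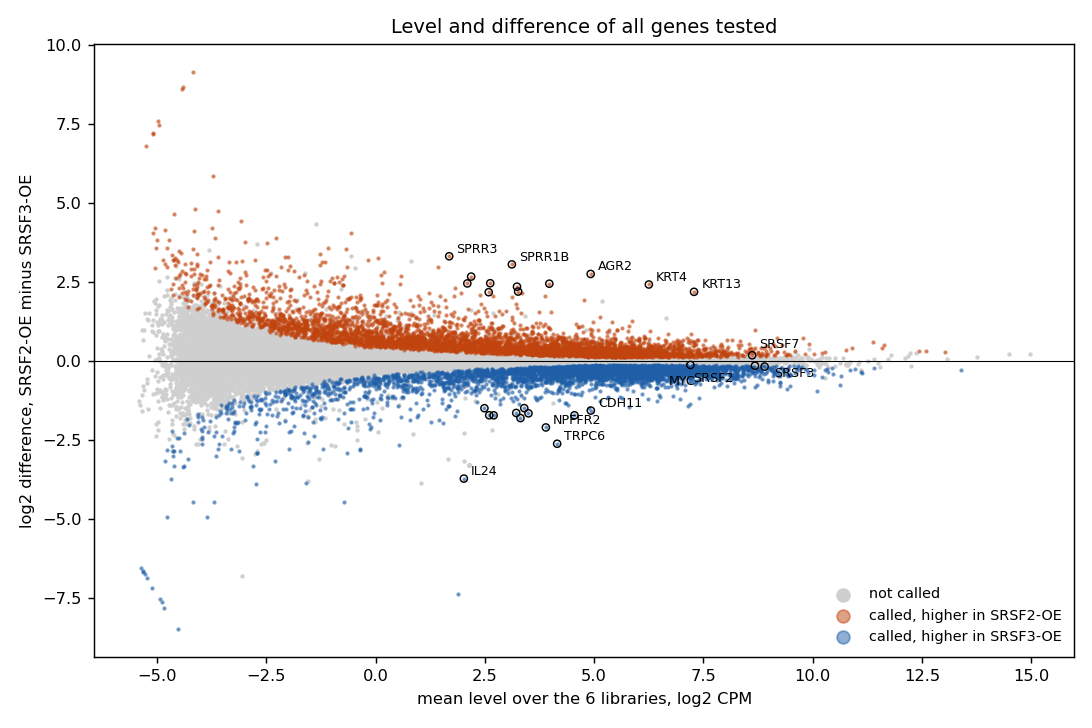
Each point is a gene, with its mean level over the 6 libraries (log2 CPM) on the horizontal axis and its log2 difference, SRSF2-OE minus SRSF3-OE, on the vertical axis; red and blue points passed an adjusted p of 0.05. SPRR3, SPRR1B and AGR2 lie highest among the 24 circled genes named by size and IL24 and TRPC6 lowest, while SRSF2, SRSF3, SRSF7 and MYC, circled at the right, lie near 0.

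Direction went with level and with transcript type. Below 1 CPM 1077 genes were higher in the SRSF2-OE-labelled libraries and 353 in those labelled SRSF3-OE, while at 100 CPM or more the counts were 327 and 745. Long non-coding genes held 795 (17.4%) and 232 (5.08%) calls among 4565 tested, and protein-coding genes 3228 (21.1%) and 3850 (25.2%) among 15286. Genes higher in SRSF2-OE had a median transcript GC content of 52.4%, those higher in SRSF3-OE 43.4%, and all genes tested 48.3%. The median length of the longest transcript was 2809.5, 4334.5 and 2711 bases in the same order. With each library's GC trend removed 8367 genes were called, 6996 of them among the 8600.

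The SRSF2-OE-labelled libraries held far more RNA of genes of squamous differentiation. In stratified epithelia, cells that leave the basal layer replace KRT5 and KRT14 by other keratins, make small proline-rich proteins and involucrin, and cross-link them into the cornified envelope. Of 43 genes of basal keratins and squamous differentiation 41 passed the filter, 25 (61.0%) were higher in SRSF2-OE and 7 (17.1%) in SRSF3-OE. The shares over all genes, to be set beside every list below, were 19.2% and 18.7%. The median log2 difference of the list was 1.06 against 0.04 over all genes. Over the alternatives without a minimum difference the counts ran from 23 to 27 and from 6 to 7.

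Among genes named by size, which average at least 5 CPM, the 2 with the highest differences encode small proline-rich proteins and lie close together in the epidermal differentiation cluster of chromosome 1. Their 250 bases before the start site are printed because both genes moved together and both hold the motif TGANTCA, the form of site that dimers of FOS and JUN proteins (AP-1) bind. The sequences are from RefSeq (GRCh38.p14, plus strand, chr1:153001499-153001748 and chr1:153030953-153031202), with each match in capitals.
SPRR3: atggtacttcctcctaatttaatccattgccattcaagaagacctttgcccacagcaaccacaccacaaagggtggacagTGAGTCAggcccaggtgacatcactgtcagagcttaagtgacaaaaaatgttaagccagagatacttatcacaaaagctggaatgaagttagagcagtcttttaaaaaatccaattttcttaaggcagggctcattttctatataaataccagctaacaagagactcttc
SPRR1B: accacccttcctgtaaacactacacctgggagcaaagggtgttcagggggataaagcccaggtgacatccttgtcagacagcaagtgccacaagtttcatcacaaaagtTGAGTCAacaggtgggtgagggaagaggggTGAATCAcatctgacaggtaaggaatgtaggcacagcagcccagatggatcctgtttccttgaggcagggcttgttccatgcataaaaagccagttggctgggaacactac
The match in SPRR3 begins 170 bases before the start, and those in SPRR1B 141 and 111 bases before it. The motif reads the same on both strands and was the only motif searched. It was found in 6.57% of all 35116 promoters of that length in the table, in 5.05% of those of tested genes, and in 6 of 20 promoters matched to the squamous genes higher in SRSF2-OE (SPRR3, SPRR1B, SPRR1A, IVL, FLG and SBSN; 17 of the 25 genes matched). In the same list it was found in 1 of 4 promoters of genes higher in SRSF3-OE (SERPINB2; 4 of 7 genes matched). For the 12 genes named by size on each side it stood in 2 of 10 and 1 of 22 promoters. It was also found in 4 of 23 promoters matched to the cytokine genes that were higher in SRSF3-OE (17 of 20 genes matched). Among all genes called, it stood in 5.65% of promoters of those higher in SRSF2-OE and in 4.96% of those higher in SRSF3-OE. A match describes letters and not binding, and binding was not measured.

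SPRR3 (ENSG00000163209.15, chr1:153001747-153003856) was at 10.04, 9.57 and 10.8 CPM in the SRSF2-OE-labelled libraries, at 1.08, 0.9896 and 0.972 CPM in those labelled SRSF3-OE and at 4.07, 3.35 and 5.27 CPM in 1xCtrl. Every SRSF2-OE library lay above every control library and every control library above every SRSF3-OE library. The difference was 9.99-fold, or 3.32 on the log2 scale (SE 0.104, adjusted p = 2.61e-10). SPRR1B (ENSG00000169469.9, chr1:153031202-153032900) stood at 25.7, 22.04 and 27.9 CPM against 2.61, 2.97 and 3.46 CPM, with 1xCtrl at 6.06, 6.96 and 5.53 CPM. It kept the same order of groups, with a difference of 8.36-fold (3.06, SE 0.119, adjusted p = 2.24e-08). SPRR1A, a close relative in the same cluster, was lower in level and was at 2.32, 2.404 and 3.12 CPM against 0.456, 0.469 and 0.484 CPM (2.47, adjusted p = 1.33e-07). The SPRR genes are similar in sequence, and reads shared between them could have been split by the authors' counting.

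KRT1, the keratin of the layers above the basal one in skin, was at 12.2, 11.4 and 11.4 CPM in SRSF2-OE and 1.55, 1.49 and 2.42 CPM in SRSF3-OE, with 1xCtrl at 3.13, 2.66 and 2.53 CPM. The control lay near the SRSF3-OE libraries for this gene, all of its values being above theirs, and the difference between the lines was 6.39-fold (2.68, adjusted p = 7.75e-06). KRT4 and KRT13 form the keratin pair of wet stratified linings such as the oral mucosa and oesophagus. KRT4 (ENSG00000170477.13, chr12:52806549-52814551) was at 188, 174 and 170.3 CPM against 32.5, 29.95 and 36.4 CPM, and KRT13 (ENSG00000171401.15, chr17:41500981-41505705) at 384, 305 and 317 CPM against 69.05, 70.2 and 80.4 CPM. For both genes 1xCtrl lay with the SRSF2-OE-labelled libraries, at 172, 193 and 171 CPM for KRT4 and 278, 349 and 245 CPM for KRT13. The differences were 5.38-fold for KRT4 (2.43, SE 0.0721, adjusted p = 3.16e-10) and 4.58-fold for KRT13 (2.19, SE 0.0975, adjusted p = 3.57e-07). S100A8, a calcium-binding protein of activated keratinocytes and of neutrophils, was at 13.3, 15.4 and 15.02 against 2.89, 2.05 and 2.96 CPM (2.47, adjusted p = 2.31e-07), between which 1xCtrl lay at 7.77, 8.38 and 10.7 CPM.

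The list did not move as a whole. Among the members chosen after their values were seen, the basal keratin KRT14 was at 609, 509 and 520.1 CPM in the SRSF2-OE-labelled libraries and 954, 862 and 1026 CPM in those labelled SRSF3-OE (-0.79, adjusted p = 1.07e-05). KRT17 was at 88.2, 79.05 and 81.6 against 189.9, 171 and 213 CPM (-1.21, adjusted p = 3.38e-07), and TP63, the transcription factor of basal cells, at 158, 136 and 136 against 226, 205 and 203 CPM (-0.56, adjusted p = 2.41e-05). All of these were higher in SRSF3-OE without overlap. KRT5, which pairs with KRT14, was at 1876, 1588 and 1647 against 1659, 1544 and 1607 CPM and did not pass the test (0.09, adjusted p = 0.372). Involucrin (IVL) was among those higher in SRSF2-OE, at 12.2, 13.4 and 13.97 against 2.902, 2.68 and 3.99 CPM (2.05). Desmosomal genes, which join neighbouring epithelial cells, split: of 20 genes tested 5 were higher in SRSF2-OE, led by JUP among the named ones (0.40, a call lost with all 12 libraries in the fit at an adjusted p of 0.208), and 9 in SRSF3-OE, led by DSG2 (-0.57).

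**Figure D2:**
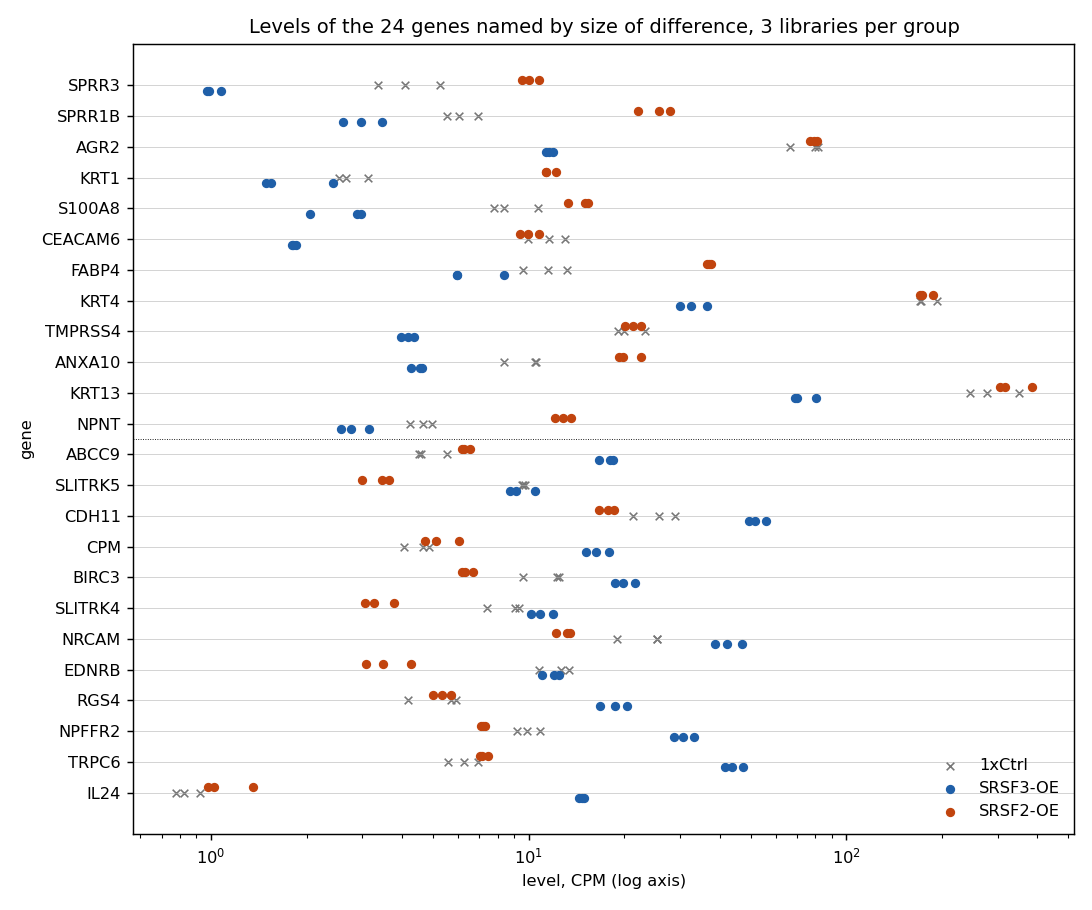
Each row is a gene of the 24 named by size, the horizontal axis is its level in CPM on a log axis, and each point is a library (red SRSF2-OE, blue SRSF3-OE, grey crosses 1xCtrl, 3 each). The red and blue points of every gene stand apart, and the crosses lie with the red points for AGR2, KRT4 and TMPRSS4 and with the blue points for EDNRB and SLITRK5.

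Luminal and secretory genes made up the other large group. AGR2 is a protein disulfide isomerase of the endoplasmic reticulum that secretory epithelia use to fold mucins. AGR2 (ENSG00000106541.12, chr7:16791811-16833433) stood at 76.8, 79.1 and 80.8 CPM in SRSF2-OE, at 11.96, 11.6 and 11.4 CPM in SRSF3-OE and at 79.7, 66.4 and 81.8 CPM in 1xCtrl. The control thus lay with the SRSF2-OE-labelled libraries, and those labelled SRSF3-OE were 6.77-fold lower (2.76, SE 0.0517, adjusted p = 7.6e-13). Of 31 luminal and secretory genes 26 passed the filter, 18 (69.2%) were higher in SRSF2-OE and 3 (11.5%) in SRSF3-OE, with a median log2 difference of 0.51. CEACAM6 and CEACAM5, adhesion molecules of glandular epithelium, were both higher in SRSF2-OE. CEACAM6 was at 9.401, 9.93 and 10.8 against 1.81, 1.802 and 1.85 CPM (2.46, adjusted p = 1.43e-09) and CEACAM5 at 2.56, 2.49 and 3.24 against 0.206, 0.182 and 0.107 CPM (4.07, adjusted p = 5.43e-08). 1xCtrl overlapped SRSF2-OE for CEACAM6, at 11.6, 9.96 and 12.98 CPM. For CEACAM5 it lay between the lines, at 1.66, 1.15 and 1.29 CPM. Both share exon bases on the same strand with AC243967.1, 172 of 3052 for CEACAM6 and 544 of 3351 for CEACAM5, so part of their counts is uncertain. The membrane mucin MUC20 was 3.53-fold higher (18.3, 16.3 and 17.6 against 4.89, 4.97 and 4.93 CPM), with 1820 of its 4249 exon bases shared with MUC20-OT1. For MUC20 too 1xCtrl overlapped SRSF2-OE, at 20.7, 26.2 and 16.4 CPM.

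HCC1806 is classed as lacking hormone receptors, and the oestrogen receptor gene ESR1 was looked at after its values were seen. It was at 10.8, 10.6 and 11.02 CPM in the SRSF2-OE-labelled libraries, at 6.61, 6.72 and 6.26 CPM in those labelled SRSF3-OE and at 8.22, 8.36 and 8.96 CPM in 1xCtrl (0.73, adjusted p = 8.25e-06). The SRSF2-OE libraries were the highest and the SRSF3-OE libraries the lowest. The 3 genes of the list higher in SRSF3-OE were LTF (-2.46), PROM1 (-1.10) and EHF (-0.40), of which only EHF exceeded 2 CPM, at 212, 205 and 188 against 273, 258 and 268 CPM.

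The remaining 4 of the 12 genes with the highest differences belong to other families. FABP4, the fatty acid binding protein best known from adipocytes, was at 37.6, 36.9 and 36.6 CPM against 5.95, 5.96 and 8.37 CPM, with 1xCtrl near the lower group at 11.6, 9.58 and 13.2 CPM (2.45, adjusted p = 1.05e-05). TMPRSS4, a membrane serine protease, was at 22.5, 20.2 and 21.3 against 3.96, 4.16 and 4.36 CPM, with 1xCtrl at 23.2, 20.01 and 19.1 CPM (2.36, adjusted p = 3.16e-10). For TMPRSS4 the control overlapped the SRSF2-OE libraries. ANXA10, an annexin of gastric and urothelial epithelium, was at 22.7, 19.8 and 19.3 against 4.61, 4.26 and 4.55 CPM (2.20), and nephronectin (NPNT), a matrix ligand of an integrin, at 12.1, 12.8 and 13.6 against 2.57, 2.76 and 3.14 CPM (2.18). 1xCtrl lay between the lines for both.

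The libraries labelled SRSF3-OE held more RNA of secreted immune signals. IL24 encodes a cytokine of the IL-10 family that signals to epithelial cells. IL24 (ENSG00000162892.16, chr1:206897443-206904139) was at 1.02, 0.981 and 1.36 CPM in SRSF2-OE, at 14.9, 14.5 and 14.7 CPM in SRSF3-OE and at 0.922, 0.778 and 0.825 CPM in 1xCtrl. Only the SRSF3-OE libraries stood high, 13.2-fold above those labelled SRSF2-OE (-3.72, SE 0.123, adjusted p = 3.49e-10), the lowest log2 difference of the genes named by size. Of 40 cytokine and chemokine genes 35 passed the filter, 20 (57.1%) were higher in SRSF3-OE and 3 (8.57%) in SRSF2-OE, and the median log2 difference was -0.56. Over those alternatives 17 to 20 and 1 to 5 were called.

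Most members of the cytokine list were low in level. IL32 was at 0.403, 0.457 and 0.487 CPM against 1.84, 1.84 and 1.67 CPM (-1.99, adjusted p = 7.8e-07), CXCL5 at 0.403, 0.588 and 0.666 against 1.68, 1.91 and 1.53 CPM (-1.63) and CCL20, which attracts lymphocytes and dendritic cells, at 0.956, 1.001 and 1.09 against 2.96, 3.01 and 2.703 CPM (-1.51). Named after their values were seen, IL1A, an alarm cytokine of keratinocytes, was at 32.97, 36.9 and 33.6 against 61.6, 64.1 and 59.6 CPM (-0.84, adjusted p = 1.33e-07), IL1B at 11.7, 11.3 and 10.2 against 21.9, 22.04 and 19.9 CPM (-0.95) and the neutrophil attractant CXCL8 at 12.96, 12.997 and 13.5 against 24.5, 24.2 and 25.1 CPM (-0.91, adjusted p = 1.17e-07). The 6 libraries fell into separate ranges for each of these. IL1RN, the natural antagonist of IL-1, went the other way, at 8.19, 7.28 and 6.21 against 3.47, 3.401 and 3.72 CPM (1.03, adjusted p = 8.63e-06). BIRC3, an inhibitor of apoptosis that acts in NF-kappaB signalling, was at 6.16, 6.302 and 6.67 CPM in SRSF2-OE and 21.6, 19.9 and 18.7 CPM in SRSF3-OE (-1.65, adjusted p = 6.65e-09), with 1xCtrl between them at 12.3, 9.63 and 12.4 CPM. Leukocyte markers summed to 20.6 to 22.7 CPM in SRSF2-OE and 28.5 to 31.6 CPM in SRSF3-OE, almost all of it CD68, while CD3E had at most 2 counts in any of the 6 libraries. Interferon-stimulated genes did not lean: of 46 tested 10 were higher in SRSF2-OE and 8 in SRSF3-OE, with a median of -0.01.

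**Figure D3:**
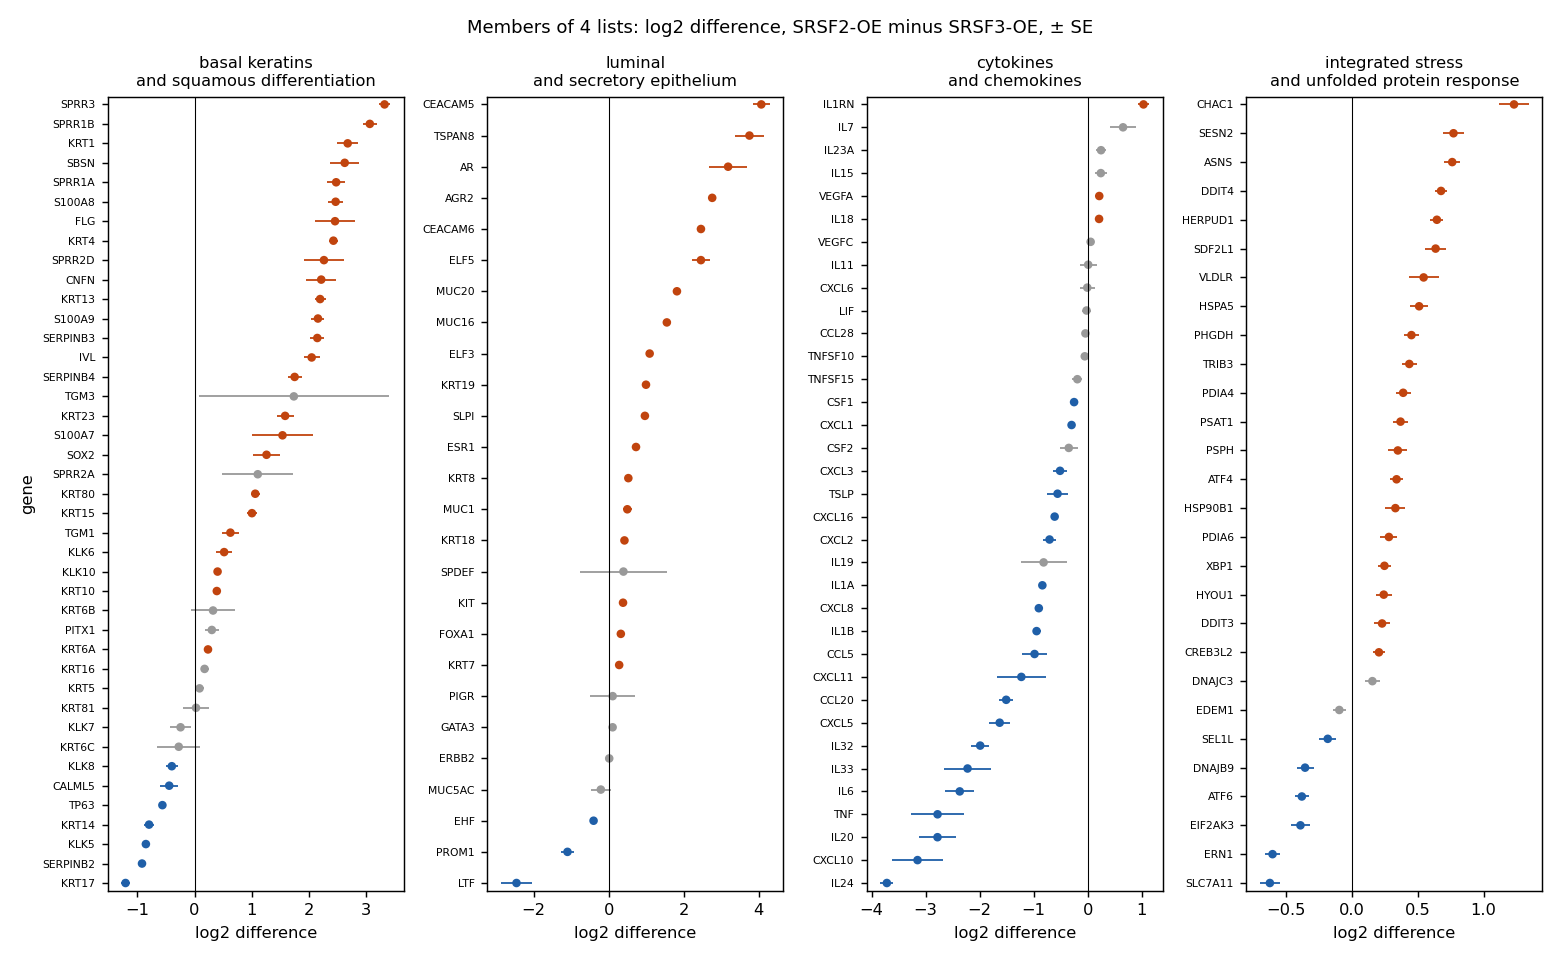
Each panel holds a gene list, each row a member that passed the filter, and each point its log2 difference, SRSF2-OE minus SRSF3-OE, with a bar of 1 SE to each side (red and blue for an adjusted p under 0.05, grey otherwise; the horizontal scales differ). The squamous list runs from 3.32 for SPRR3 to -1.21 for KRT17 and the cytokine list from 1.03 for IL1RN to -3.72 for IL24.

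Several genes higher in the libraries labelled SRSF3-OE encode channels, receptors and cell surface proteins best known from nerve, muscle and vessel. TRPC6 is a calcium-permeable cation channel opened by diacylglycerol. TRPC6 (ENSG00000137672.13, chr11:101451564-101872562) was at 7.02, 7.43 and 7.13 CPM in SRSF2-OE, at 47.4, 41.5 and 43.6 CPM in SRSF3-OE and at 6.92, 5.57 and 6.28 CPM in 1xCtrl. Again only the SRSF3-OE libraries stood high, by 6.13-fold (-2.62, SE 0.0648, adjusted p = 1.66e-11). NPFFR2, a G-protein coupled receptor for neuropeptide FF, was at 7.098, 7.29 and 7.196 against 33.1, 30.7 and 28.8 CPM (-2.10, adjusted p = 3.13e-10), and RGS4, which speeds the shut-off of G proteins, at 5.68, 5.32 and 4.99 against 20.4, 16.8 and 18.7 CPM (-1.80, adjusted p = 9.87e-09). 1xCtrl was near the lower line for both, at 9.89, 9.17 and 10.9 and 5.92, 4.16 and 5.71 CPM. ABCC9, a regulatory subunit of ATP-sensitive potassium channels, was at 6.16, 6.52 and 6.25 against 18.4, 16.7 and 18.04 CPM (-1.49, adjusted p = 1.29e-08), and the gene of carboxypeptidase M, a membrane enzyme, stood 3.12-fold higher in SRSF3-OE (-1.64).

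For EDNRB, SLITRK5 and SLITRK4 the control sat with or near SRSF3-OE. EDNRB, the endothelin receptor type B, was at 3.48, 3.08 and 4.26 CPM in SRSF2-OE, 12.5, 11.01 and 12.04 CPM in SRSF3-OE and 13.4, 10.8 and 12.6 CPM in 1xCtrl (-1.72, adjusted p = 1.99e-07). SLITRK5, a transmembrane protein of synapses, was at 3.45, 3.64 and 2.98 against 10.5, 9.105 and 8.77 CPM with 1xCtrl at 9.73, 9.55 and 9.62 CPM (-1.49), and its relative SLITRK4 at 3.25, 3.76 and 3.05 against 11.98, 10.9 and 10.2 CPM with 1xCtrl at 9.36, 7.402 and 9.05 CPM (-1.71). The neuronal adhesion molecule NRCAM was at 13.2, 12.2 and 13.5 against 47.01, 38.5 and 42.1 CPM (-1.72, adjusted p = 5.57e-09), and 1xCtrl lay between at 25.4, 18.98 and 25.3 CPM. CDH11, a cadherin of mesenchymal cells, was at 17.7, 16.7 and 18.6 against 55.7, 49.4 and 51.8 CPM, with 1xCtrl nearer to SRSF2-OE at 28.99, 21.4 and 25.8 CPM (-1.57, adjusted p = 1.43e-09). It was the most changed named member of 25 genes of the mesenchymal state, of which 23 passed the filter, 3 were higher in SRSF2-OE and 6 in SRSF3-OE, and fibronectin (FN1) went the other way at 50.2, 52.9 and 44.4 against 35.3, 29.5 and 30.01 CPM (0.64). TRP and potassium channel genes as a list did not lean, with 9 of 24 tested higher on each side. KCNN4 (1.30), TRPA1 (1.26) and TRPV4 (1.03) were higher in the SRSF2-OE-labelled libraries.

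Ligands and receptors of the EGFR family act on growth. EGFR is the receptor tyrosine kinase that basal-like breast cancer cells express strongly. Of 17 genes 16 passed the filter, 7 (43.8%) were higher in SRSF3-OE and 2 (12.5%) in SRSF2-OE, beside 18.7% and 19.2% of all genes, with a median of -0.16. The share of all genes higher in SRSF3-OE was 31.5% at 10 to 100 CPM and 37.7% at 100 CPM or more. EREG, EPGN, LRIG1 and EGFR lie at these levels, so part of the lean is shared with well-expressed genes. The 2 are ERRFI1 and NRG4, and NRG4 lies in the stretch of chromosome 15 described below. The ligand EREG was at 110.1, 105 and 121 CPM in SRSF2-OE and 276, 237 and 248 CPM in SRSF3-OE (-1.17, SE 0.0685, adjusted p = 6.31e-08), and EPGN, which lies beside it on chromosome 4, at 14.98, 15.5 and 15.6 against 25.9, 26.9 and 25.5 CPM (-0.76, adjusted p = 3.57e-07). LRIG1, which restrains these receptors, was higher in SRSF3-OE too (14.9, 15.9 and 16.7 against 32.3, 30.4 and 32.01 CPM, adjusted p = 6.31e-08), and ERRFI1, an inhibitor inside the cell, was higher in SRSF2-OE (119, 124 and 122 against 81.9, 81.6 and 80.8 CPM, 0.58). EGFR itself, added after its values were seen, was at 571, 590.5 and 609 against 895, 774 and 789 CPM (-0.47, adjusted p = 7.04e-05).

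TGF-beta genes were called in equal numbers, 11 of 31 on each side, with large differences in components that work together. TGFBR1, the signalling receptor, was at 40.9, 41.3 and 45.99 CPM in SRSF2-OE and 88.5, 78.4 and 81.7 CPM in SRSF3-OE (-0.96, adjusted p = 1.01e-07). SMAD3, which it activates, was at 106, 110.3 and 109 against 56.1, 58.03 and 54.4 CPM (0.95, adjusted p = 1.46e-08), and the inhibitory SMAD6 at 16.9, 16.7 and 15.8 against 8.72, 8.48 and 9.03 CPM (0.91). Receptor and SMADs thus differed in opposite directions, each without overlap, and both SMAD genes lie in the stretch of chromosome 15 described below. INHBA, a subunit of activin, was at 36.7, 39.4 and 38.8 against 64.9, 66.97 and 61.9 CPM (-0.75, adjusted p = 1.83e-07). Immediate early genes were split as well, 9 and 8 of 24, with ATF3 (5.63, 5.63 and 5.76 against 14.3, 13.1 and 13.7 CPM, -1.27) and the phosphatase DUSP1 (-0.98) higher in SRSF3-OE.

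Integrins are paired receptors that anchor cells to collagen, laminin and fibronectin. Of 26 integrin genes 20 passed the filter, 11 (55%) were higher in SRSF3-OE and 5 (25%) in SRSF2-OE, with a median of -0.26. ITGA1, a collagen receptor chain, was at 8.28, 8.07 and 8.45 against 15.8, 14.1 and 14.04 CPM (-0.82, adjusted p = 2.48e-06), and ITGA4 at 5.58, 5.79 and 6.21 against 10.9, 8.87 and 9.05 CPM with 1xCtrl lower still at 1.63, 1.504 and 1.76 CPM (-0.71, adjusted p = 6.21e-05). ITGB4, the laminin receptor chain of hemidesmosomes and named after its values were seen, was at 512, 441 and 499 against 778, 734 and 794 CPM (-0.67, adjusted p = 4.31e-06). Its 1xCtrl libraries scattered widely, at 525, 1063 and 358 CPM. Laminins and matrix glycoproteins were called 12 to 12 of 37 and collagens 9 to 10 of 34. FBN2, a fibrillin, was 4.07-fold higher in SRSF2-OE (17.1, 16.99 and 18.8 against 4.94, 4.099 and 3.97 CPM), while tenascin C (TNC) was 3.66-fold higher in SRSF3-OE (1.27, 1.57 and 1.45 against 5.48, 5.37 and 4.85 CPM). 1xCtrl lay between the lines for FBN2, at 12.02, 9.27 and 11.4 CPM. For TNC it lay near SRSF3-OE, at 5.98, 6.73 and 5.45 CPM. Matrix proteases were called 9 to 10 of 34, with MMP2, a gelatinase, higher in SRSF2-OE at 22.3, 23.3 and 22.7 against 11.98, 9.85 and 10.9 CPM (1.06) and MMP3, a stromelysin, higher in SRSF3-OE at 1.15, 1.72 and 1.56 against 6.23, 5.61 and 5.53 CPM (-1.97). Claudins and tight junction genes split 7 to 7 of 23. CLDN8 was at 13.4, 11.5 and 12.8 against 4.18, 4.41 and 4.79 CPM, both below 1xCtrl at 31.4, 25.4 and 29.9 CPM.

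Markers used for breast cancer stem cells did not move together. Of 15 genes 13 passed the filter, 3 (23.1%) were higher in SRSF2-OE and 7 (53.8%) in SRSF3-OE. The aldehyde dehydrogenase ALDH1A1 was at 18.5, 16.3 and 15.4 CPM in SRSF2-OE, 5.46, 4.69 and 5.65 CPM in SRSF3-OE and 22.5, 19.1 and 23.8 CPM in 1xCtrl (1.67, adjusted p = 3.76e-08). The drug efflux pump ABCG2 showed the reverse, at 11.1, 11.6 and 11.6 against 24.3, 21.7 and 22.2 CPM with 1xCtrl at 22.95, 18.8 and 20.4 CPM (-0.99, adjusted p = 1.66e-07). For ALDH1A1 the SRSF3-OE libraries stood below control and SRSF2-OE, and for ABCG2 the SRSF2-OE-labelled libraries stood below the other groups.

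**Figure D4:**
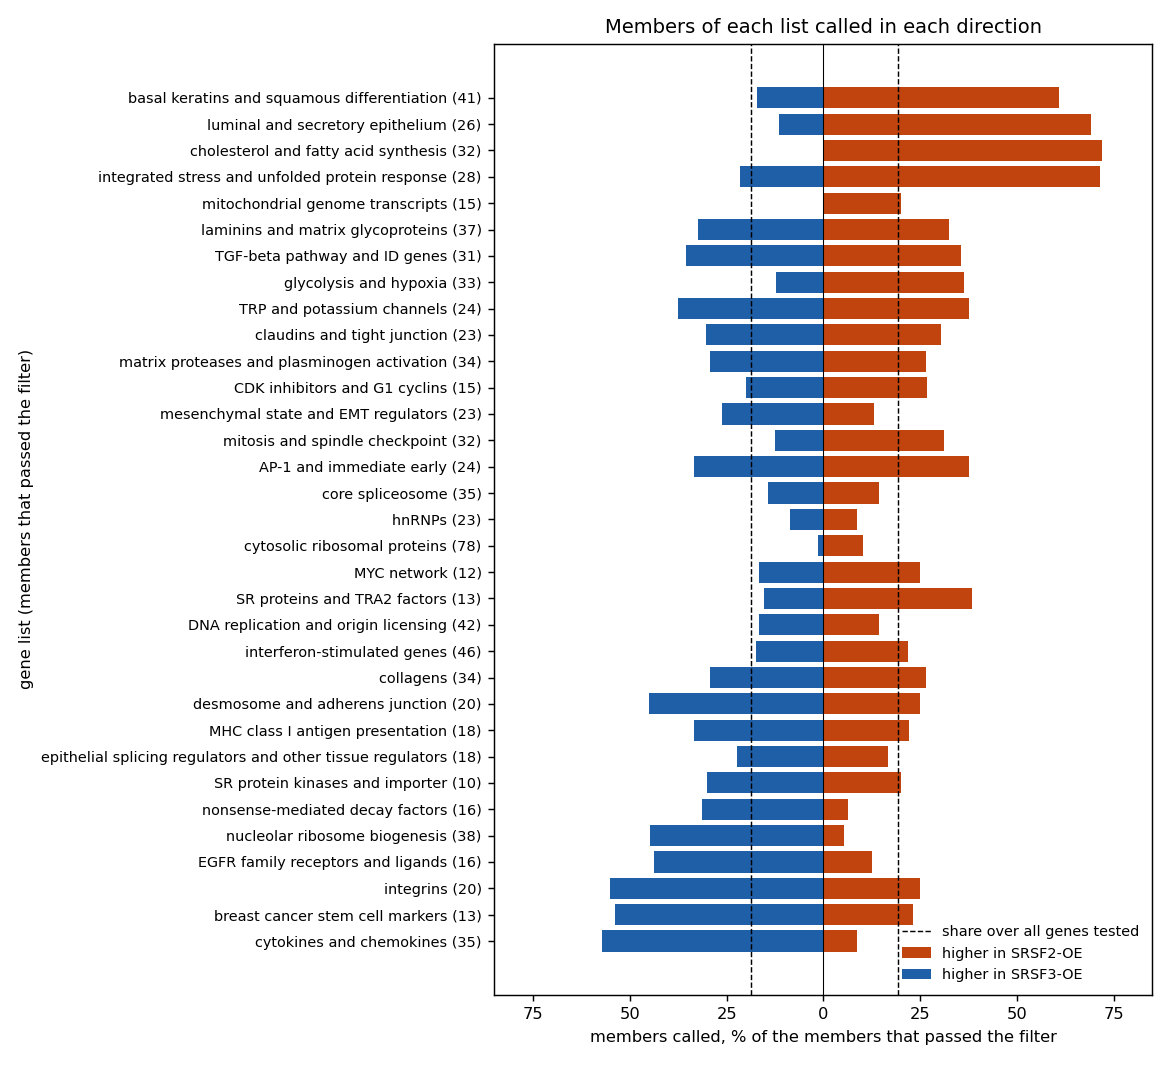
Each bar shows the share of a gene list's tested members that were called, to the right higher in SRSF2-OE and to the left higher in SRSF3-OE; dashed lines mark 19.2% and 18.7%, the shares over all genes tested, and lists are ordered by median log2 difference. Squamous, luminal, cholesterol and stress response genes lean to the right, and cytokines, integrins and nucleolar genes to the left.

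Cholesterol and fatty acid synthesis is switched on as a set by SREBP transcription factors. All 32 genes of that list passed the filter, 23 (71.9%) were higher in SRSF2-OE and 0 in SRSF3-OE, with a median log2 difference of 0.35. By edgeR with the GC trend removed or by DESeq2, 1 or 2 of them were higher in SRSF3-OE. STARD4, a cholesterol carrier, was at 52.5, 49.2 and 52.5 against 35.1, 33.3 and 34.4 CPM (0.58, adjusted p = 1.23e-06). FASN, the fatty acid synthase, lay at 137, 116 and 132 against 137, 137 and 152 CPM (-0.15, adjusted p = 0.103) and did not pass the test; it was named after its values were seen.

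The integrated stress response raises ATF4, which drives amino acid synthesis, while the unfolded protein response raises chaperones of the endoplasmic reticulum. Of 29 genes 28 passed the filter, 20 (71.4%) were higher in SRSF2-OE and 6 (21.4%) in SRSF3-OE, with a median of 0.33. Among targets of ATF4 higher in SRSF2-OE, CHAC1 was at 5.14, 4.44 and 5.04 against 2.12, 2.19 and 1.91 CPM (1.23, adjusted p = 2.41e-06), SESN2 at 11.4, 10.7 and 10.9 against 6.18, 6.98 and 6.19 CPM (0.77) and DDIT4 at 127, 125 and 122 against 77.8, 75.96 and 79.8 CPM (0.68). For CHAC1 (4.16, 5.11 and 3.07 CPM) and SESN2 (9.83, 12.2 and 8.87 CPM) 1xCtrl overlapped SRSF2-OE. For DDIT4 1xCtrl lay above both lines, at 157, 186 and 153 CPM. ATF4 itself, named after its values were seen, was at 266, 270.1 and 252 against 209.8, 203 and 211 CPM (0.34, adjusted p = 0.000154), and the chaperone HSPA5 at 3554, 3942 and 3819.6 against 2818, 2508 and 2621 CPM (0.51, adjusted p = 7.74e-05). The 6 genes higher in SRSF3-OE were SLC7A11, ERN1, EIF2AK3, ATF6, DNAJB9 and SEL1L, and 3 of these, ERN1, EIF2AK3 and ATF6, encode the sensors of the unfolded protein response. Of 33 glycolysis and hypoxia genes 12 (36.4%) were higher in SRSF2-OE and 4 (12.1%) in SRSF3-OE. EGLN3, an oxygen-sensing hydroxylase, was the most changed at 3.397, 3.37 and 3.64 against 1.17, 1.198 and 1.19 CPM (1.55).

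Genes that build ribosomes leaned to SRSF3-OE. All 38 nucleolar ribosome biogenesis genes passed the filter, 17 (44.7%) were higher in SRSF3-OE and 2 (5.26%) in SRSF2-OE, with a median of -0.14. Over the alternatives without a minimum difference the first count ran from 11 to 22. Among all genes tested 18.7% were higher in SRSF3-OE. That share was 31.5% for genes at 10 to 100 CPM and 37.7% at 100 CPM or more, so part of the lean is shared with well-expressed genes. DDX21, a nucleolar helicase, was at 391, 378 and 364 against 588, 512 and 563 CPM (-0.55, adjusted p = 1.26e-05), and POLR1B, a subunit of RNA polymerase I, at 67.8, 67.9 and 65.6 against 103, 90.04 and 95.97 CPM (-0.52, adjusted p = 7.4e-06). FBL, the methyltransferase of ribosomal RNA, was lower in the SRSF2-OE-labelled libraries than in SRSF3-OE and in 1xCtrl, at 110.0, 103 and 102, 167, 161 and 163 and 138, 132 and 136 CPM (-0.64). The ribosomal protein genes themselves did not follow: of 78 tested 8 were higher in SRSF2-OE and 1 in SRSF3-OE, a share of calls (11.5%) below the 37.8% of all genes. RPLP1 led them at 195, 175 and 194 against 119, 114 and 129 CPM (0.64, adjusted p = 3.09e-06), with 1xCtrl at 124, 234 and 105 CPM. With all 12 libraries in the fit that call was lost (adjusted p = 0.131, against a range from 1.74e-19 over the alternatives).

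Over the lists of splicing factors and their regulators the share called ran from 17.4% of hnRNPs to 53.8% of SR and TRA2 genes. Among all genes that share was 52.1% at 10 to 100 CPM and 54.2% at 100 CPM or more. Of 23 hnRNP genes 2 were higher in each line (17.4% called), and of 35 core spliceosome genes 5 in each (28.6%), beside 37.8% of all genes. Over the alternatives without a minimum difference the hnRNP counts ran from 0 to 7 and from 1 to 6. With the GC trend removed they were 7 and 6. SNRNP200, a helicase of the U5 particle, was at 359.5, 346 and 344 against 468, 449.9 and 454 CPM (-0.39, adjusted p = 5.53e-05), and the splicing repressor PTBP3 at 112, 99.4 and 101 against 158, 139 and 147 CPM (-0.51, adjusted p = 2.78e-05). Of 18 tissue-specific splicing regulators tested, QKI was higher in SRSF3-OE at 102, 90.9 and 98.4 against 152, 140.1 and 135 CPM (-0.55) and ESRP2, which drives epithelial exons, in SRSF2-OE at 90.4, 91.9 and 93.5 against 72.1, 77.9 and 73.1 CPM (0.31). Of 10 genes of SR protein kinases and their importer, 2 and 3 were called (50%), with CLK2 higher in SRSF2-OE (0.43) and CLK1 higher in SRSF3-OE (-0.23); the CLK1 call was lost with the GC trend removed (adjusted p = 0.64, within 0.000887 to 0.64 over the alternatives). Of 16 nonsense-mediated decay factors 1 was higher in SRSF2-OE and 5 in SRSF3-OE (37.5% called).

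The lines differed by place in the genome as well as by gene. Genes at 10 CPM or more were put in order along each chromosome and taken in windows of 25, a step chosen after the calls per chromosome were seen. Of 378 full windows the median log2 difference of the windows lay at -0.06, the 5th percentile at -0.25 and the 95th at 0.11. Only 6 windows had a median of 0.2 or more, and all 6 lay next to each other on chromosome 15. A stretch was drawn from the first chromosome 15 window with at least 90% of its genes above 0 to the end of the chromosome. It runs from CCNB2 onward (chr15:59105078-101976543, GENCODE 29, GRCh38). In it 147 of 154 genes lay above 0, a share that this rule fixed in large part. Of the 154, 135 (87.7%) were called higher in the SRSF2-OE-labelled libraries and 1 in SRSF3-OE. The shares were 18.6% and 33.3% for the other genes placed. The median log2 difference there was 0.39, or 1.31-fold. The 150 genes nearer the centromere had a median of -0.09, with 26 and 57 called. All 9555 genes placed outside the stretch, these 150 among them, had -0.05, leaving out 1 window of chromosome 19. In that window (chr19:39125770-41207539) 1 of 25 genes lay above 0, with a median of -0.32. It was singled out after its values were seen and is not the most extreme: 8 windows of the 378 had at most 10% of their genes above 0, the lowest window median was -0.34, and a window of chromosome 2 also had 1 of 25 genes above 0, with a median of -0.30 and 21 called higher in SRSF3-OE.

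**Figure D5:**
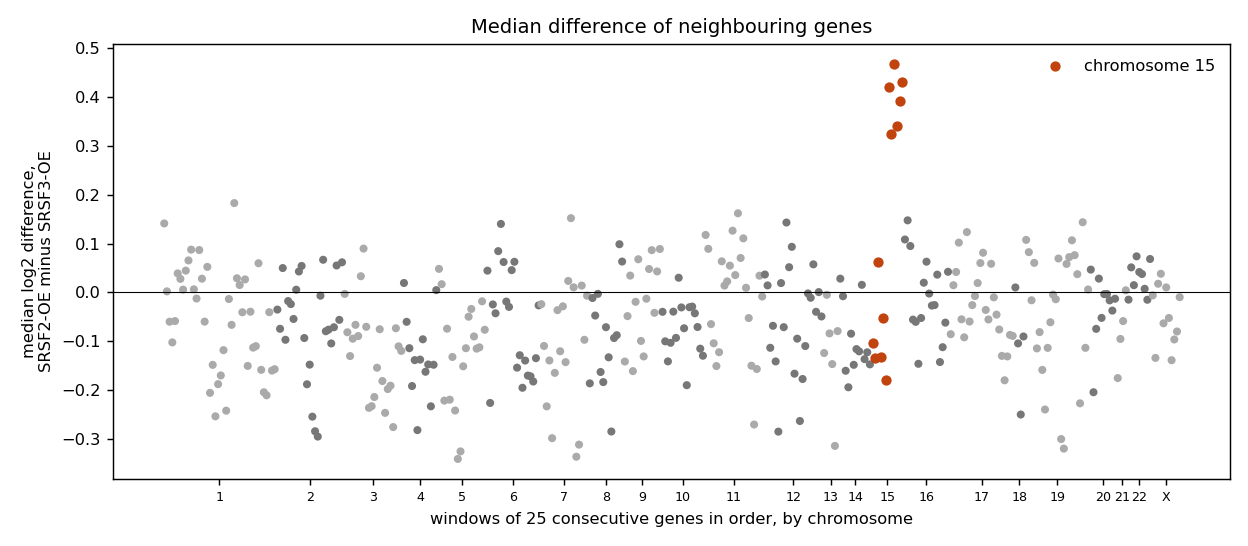
Each point is the median log2 difference, SRSF2-OE minus SRSF3-OE, of 25 consecutive genes at 10 CPM or more, in order along the chromosomes named below; grey shades alternate between chromosomes and red marks chromosome 15. 6 red points lie between 0.32 and 0.47, and no other window reaches 0.2.

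The change along chromosome 15 came within a few genes. NEDD4 (-0.43), RFX7 (-0.27) and TCF12 (-0.31) were called higher in SRSF3-OE, while of the genes that follow POLR2M, ADAM10 and RNF111 lay between 0.03 and 0.09 without passing the test and MINDY2 (0.18), SLTM (0.23), CCNB2 (0.73), MYO1E (0.39) and GTF2A2 (0.36) were called higher in the SRSF2-OE-labelled libraries. Against 1xCtrl, whose libraries both comparisons share, the median of the outer stretch was 0.12 in SRSF2-OE and -0.24 in SRSF3-OE, and 0.19 in the line labelled SRSF7-OE. For all other genes placed the same medians were 0.00, 0.06 and 0.02. The SRSF3-OE libraries were thus the only ones of these 3 lines below the control there. Only RNA was counted, and the DNA of the lines was not analysed here.

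Some gene groups above hold members from the outer stretch of chromosome 15. They include CCNB2, KIF23 and PRC1 of the 10 mitosis genes higher in SRSF2-OE, RPLP1 and RPL4 of the 8 ribosomal protein genes, SMAD3 and SMAD6, the kinase gene CLK3, NRG4, ALDH1A3, SNRPA1, and CA12 and PKM of the glycolysis and hypoxia list. FBL and RPS16, both higher in SRSF3-OE, lie in the chromosome 19 window. CCNB2, a cyclin of mitosis, was at 71.9, 70.5 and 65.8 CPM in SRSF2-OE, 43.8, 41.1 and 40.5 CPM in SRSF3-OE and 55.4, 52.5 and 61.1 CPM in 1xCtrl (0.73, SE 0.0533, adjusted p = 3.04e-07), and PKM, the last enzyme of glycolysis, had a log2 difference of 0.54. Each was higher in SRSF2-OE by at least as much as the median of the stretch. Without the stretch and the chromosome 19 window, mitosis genes were called 7 to 4 of 29, a share near the 37.8% of all genes. Ribosomal protein genes were called 5 to 0 of 74, below that share. The squamous, luminal, cytokine, cholesterol and stress response lists have no member in either region. Over genes of any level, 4119 and 4213 calls among 22301 genes lay outside both.

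Where the control stood differed from gene to gene. Of the 965 genes called and at least 1 log2 unit higher in the SRSF2-OE-labelled libraries, the mean of 1xCtrl lay between the lines for 655, above both for 249 and below both for 61, and it was nearer to SRSF2-OE for 661. Of the 349 genes at least as much higher in SRSF3-OE it lay between for 247 and above or below both for 51 each, and it was nearer to SRSF2-OE for 179. Most of these genes were low in level, 706 of the 965 and 234 of the 349 being under 1 CPM. The controls entered no test here, and 1xCtrl replicate 2 lay far from the other control libraries for several genes, such as RPLP1 above and JUNB (8.85, 24.5 and 5.68 CPM).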

How the data were processed

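RNA-seq of 6 HCC1806 libraries (polyA-selected and stranded, per the labels' protocols) was used as the whole-number read counts per gene that the authors deposited, not scaled. The submitters' processing notes name Trimmomatic 0.39, STAR, StringTie 2.1.3b and the genome build GRCh38.p13, without role or order. The annotation release, strand setting and whether a pair counts once are not given in the sources used here. Of 60668 versioned Ensembl genes deposited, 42044 have a symbol in the name table used, and 58561 were found by identifier in GENCODE 29 (GRCh38). That release served for positions, exon overlaps, GC content and length, and the authors may have counted with another. Promoter sequences are from RefSeq (GRCh38.p14).

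Groups and replicate numbers come from the titles. The counts were analysed in edgeR 4.0.16 under R 4.3.3. Low genes were dropped by filterByExpr with a minimum count of 10 and a minimum total of 15, and library sizes were scaled by TMM. The test was the two-sided quasi-likelihood F test with robust glmQLFit on the 6 libraries, with Benjamini-Hochberg adjustment over all genes tested and a threshold of 0.05. CPM are counts per mega-count, with library sizes scaled by TMM; 1xCtrl was put on that scale but entered no test. SE is the size of the log2 difference over the square root of F. The script was tested on simulated counts; with few genes changed, the share of false calls there exceeded the nominal threshold, above all through genes of low level.

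Depth was 171640946 to 248643388 counts. Replicate pairs differed by more than counting error (chi-square per degree of freedom 26.4 to 77.5), so none was counted as a duplicate.

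Named are SRSF2, SRSF3, SRSF7 and MYC; the 12 highest and the 12 lowest log2 differences among genes with a symbol, adjusted p under 0.05, at least 5 CPM on average and no overlap between the lines; and from each of 33 lists (954 genes, 903 tested) up to 4 members with the largest differences, at 1 CPM or more, under the same conditions. Genes outside the rule are marked as such, and a few genes are not reported here. The comparison, lists and rule were chosen with earlier results of these data known, so no list was tested as a set. Alternatives were RLE, upper-quartile or no factors, no filter, at least 10 counts in every library, DESeq2 1.42.0, all 12 libraries of the table, a replicate block, a minimum absolute log2 difference of 1 (glmTreat) and leaving out each replicate. Removal of the GC trend (50 bins) and the windows along chromosomes were added after seeing the data. The libraries of the series' other table were not used.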

Additional observations from a re-analysis of the deposited data

How the results depend on the processing

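Over 146 single genes with a value under each alternative, no direction reversed, and 105 were no longer called when a minimum absolute log2 difference of 1 was tested. Under that test 265 genes were called, 191 higher in SRSF2-OE and 74 higher in SRSF3-OE. Otherwise calls ranged from 6523 (all 12 libraries in the fit) to 8794 (DESeq2), and the share of calls higher in SRSF2-OE from 42.9% (without SRSF3-OE replicate 3) to 58.6% (upper-quartile factors), beside 50.7%. Without each replicate in turn, 6816 to 8557 genes were called, 3057 to 4025 and 3624 to 4532 by direction. SRSF2, uncalled at -0.15, was called with RLE factors (-0.17), no filter (-0.17), at least 10 counts in every library (-0.18), DESeq2 (-0.17) and without SRSF3-OE replicate 3 (-0.21, adjusted p = 0.0378), and ranged from -0.21 to -0.11 without each replicate. SRSF3, called at -0.17, was uncalled with upper-quartile factors (-0.13), all 12 libraries (-0.19), the minimum difference (-0.17) and the GC trend removed (-0.029), and ranged from -0.22 to -0.15 without each replicate. For these the cause was not tested. With all 12 libraries in the fit RPLP1, CDT1, JUP, COL6A2, IRF7, JUNB, MVD, MT-CO2, HNRNPD and HNRNPAB were no longer called. Of the alternatives without a minimum difference, HNRNPAB was uncalled in 13, MT-CO2 in 6 and HNRNPD in 5, that fit among them. A replicate block left 8659 genes called (4391 and 4268). Same-numbered libraries correlated at 0.03, 0.03 and -0.03 in their deviations, and 3 of 6 libraries correlated best with their own number, so the numbers were not taken to pair the libraries. The depth allows calls below 1 CPM, where the fitted differences are the least certain.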
